A study of Mus musculus with 8 samples.

Results

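Cells make cholesterol from acetyl-CoA through the mevalonate pathway, and the transcription factor encoded by Srebf2 switches these enzymes on when membranes run short of sterol. Microglia, the resident macrophages of the brain, also take up cholesterol-rich myelin debris, free the sterol in lysosomes, store it as esters and hand it to lipoprotein particles through ABC transporters. Quaking, the RNA-binding protein encoded by Qk, is known in mouse oligodendrocytes to act with the Srebf2 product on cholesterol synthesis genes. The 35 genes described here cover these steps. They were taken by symbol from a deposited table of 46983 genes, in which each of the 35 symbols had 1 row, and comprise 17 synthesis enzymes and 18 genes of sterol sensing, transport, esterification, efflux and lipoprotein particles. All 35 passed the filter on low values, with 22546 genes tested in all.

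RNA was sequenced from 8 libraries of microglia of the corpus callosum, a myelin-rich tract of the brain, in mice of the FvB/C57BL6 hybrid background. In the mice designated Qk-KO both Qk alleles were flanked by loxP sites (Cx3cr1-CreER;QKLoxP/LoxP), and in those designated WT 1 allele was (Cx3cr1-CreER;QKLoxP/+). All mice carried the tamoxifen-inducible Cre recombinase under Cx3cr1, a promoter also active in other macrophages and in monocytes. All received tamoxifen at 8 weeks of age and then 6 weeks of food with 0.2% cuprizone, a copper chelator toxic to oligodendrocytes that causes demyelination. The design compares microglia from cuprizone-fed mice of the 2 designated genotypes, with no group on a normal diet.

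By title and source name, 4 libraries were Qk-KO and 4 were WT, but the genotype field states the opposite for 4 of the 8. By that field, named Qk-KO 1 and 3 are WT and named WT 2 and 3 are Qk-KO. Libraries are therefore called by their names, and no difference is assigned to a genotype. Qk itself differed little between the named groups, with regularized log2 values of 15.59, 15.40, 15.69 and 15.29 in named Qk-KO 1 to 4 and 15.50, 15.38, 15.41 and 15.37 in named WT 1 to 4 (adjusted p = 0.819, limma). By the genotype field Qk averaged 15.37 in Qk-KO and 15.54 in WT, a difference of -0.16 ± 0.08 (SE; limma, unadjusted p = 0.0587), so the difference was above 0 by name and below 0 by field, and neither passed the adjusted test. These values sum all exons, including any outside the deleted part, so they check the labels little. The labels do not say whether libraries came from separate or pooled animals. The p-values set a difference of group means against the scatter between these libraries, and that scatter may be technical. Rough totals of reads per library were 43900000 to 58500000 in named Qk-KO and 59700000 to 69700000 in named WT. All 10 microglia markers had reads in the libraries, and their summed level was 13636 to 16091 CPM (reads scaled to a common total) in named Qk-KO and 16992 to 18690 CPM in named WT, without overlap; the part of this in the results was not tested. In bulk RNA, fewer cells of a type and less RNA per cell cannot be told apart.

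By their median, transcripts of the 18 genes of sterol sensing, transport, esters, efflux and lipoprotein particles were far more abundant than those of the enzymes. Levels are given as signal per kilobase of exon, rescaled to a common total over all genes. The median of the mean levels over the 8 libraries was 37.0 for those 18 genes and 3.01 for the 17 enzymes. Srebf2 and Scap, at 6.88 and 14.3, lay within the range of the enzymes, and Insig1, at 19.9, just above it. Apoc1, a small apolipoprotein of lipoprotein particles, had the highest length-scaled level of the 35, at 323. Abca1, which loads cholesterol and phospholipid onto lipid-poor apolipoproteins, followed at 309, and Npc2, which hands cholesterol on inside the lysosome, at 271. Mylip, a ubiquitin ligase that marks lipoprotein receptors for degradation, and Abcg1, which exports cholesterol to formed particles, were at 135 and 128. The enzymes ran from Ebp, a sterol isomerase, at 19.3 and Pmvk, phosphomevalonate kinase, at 12.8 down to Sqle, squalene epoxidase, at 0.336, the lowest length-scaled level of the 35. Stard4, a carrier of cholesterol in the cytosol, and Lcat, the plasma enzyme that esterifies cholesterol on lipoproteins, were also low, at 0.694 and 0.918. Exon lengths come from an annotation that need not be the authors', which shifts single levels but leaves comparisons of a gene between libraries untouched.

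**Figure D1:**
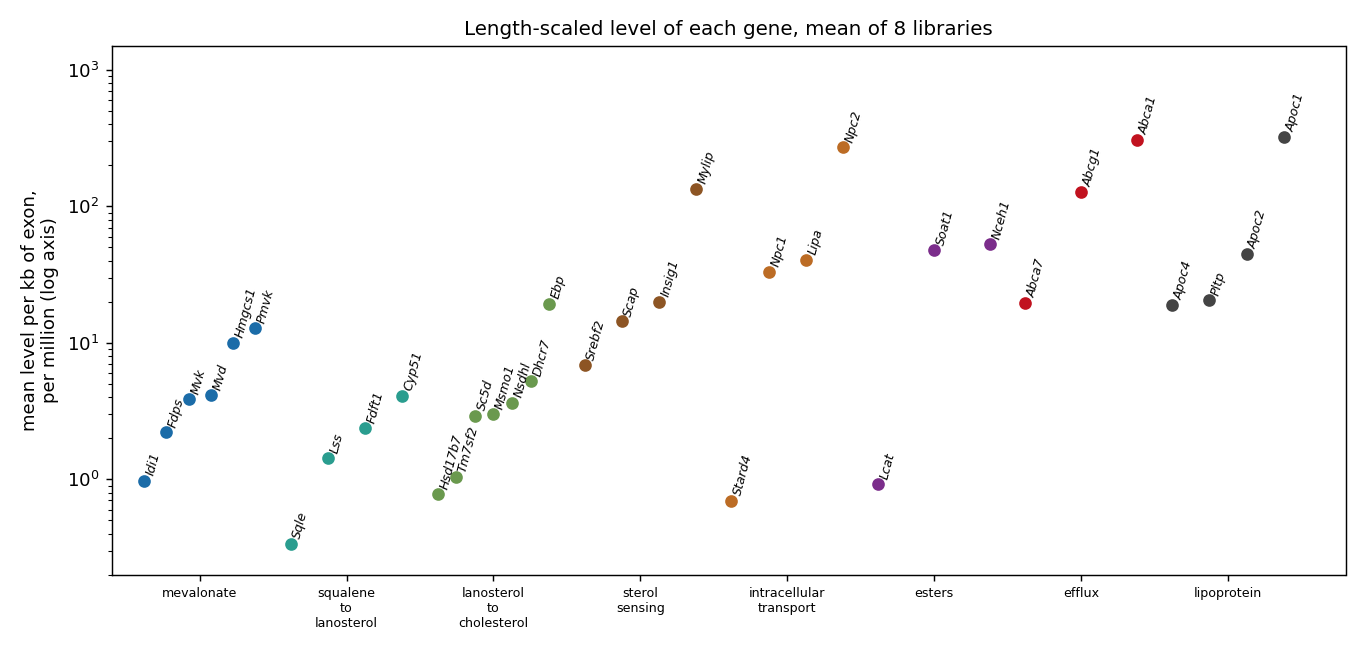
Length-scaled mean level of each of the 35 genes over 8 libraries, grouped by role. The log axis shows signal per kilobase of exon, rescaled to a common total over all genes, and each point is 1 gene. Apoc1, Abca1 and Npc2 lie highest at 323, 309 and 271, and Sqle lies lowest at 0.336.

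Between the named groups, no cholesterol gene passed either test over all genes. The authors' deposited table called 0 of the 35 at an adjusted p under 0.05, against 1.22% of the 14150 genes to which it gives one. The smallest adjusted p of the 35 there was 0.0778, for Apoc4, the 1 member under 0.1, where the table has 2.06% of its genes. A limma fit on the library values also called 0 of the 35, with a smallest adjusted p of 0.444, against 0.00444% of all genes tested. At an unadjusted p under 0.05, limma had 5 of the 35 lower and 1 higher in named Qk-KO, where all genes gave 4.5% lower and 3.76% higher, 8.26% together. The authors' deposited table had 5 lower and 2 higher at an unadjusted p under 0.05, where its genes gave 4.98% and 5.67%. The limma count of 6 was 11 without named Qk-KO 4, where the share of all genes was also larger, at 16.4%. It was 1 without named WT 4, beside 6.4% of all genes, and 2 with named Qk-KO 2 or named Qk-KO 3 left out, beside 6.99% and 6.25%. Centring each library on its median gene added 0.08 to every difference and left 2 of the 6, Sqle and Apoc4, beside 7.77% of all genes. A p that misses the threshold does not show that a gene is the same in both groups. Values below are regularized log2 values, on which a step of 1 is a 2-fold change, and differences are named Qk-KO minus named WT.

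The synthesis enzymes leaned lower in named Qk-KO, by small amounts. Of 17 enzymes, 15 had a difference below 0, against 51.2% of all genes tested, and their median difference was -0.13, against -0.0044 over all genes. After centring each library on its median gene, 9 of 17 were below 0 and the median was -0.05. Over all genes, 33.0% were then below 0 and the median was 0.07. Without named Qk-KO 3 the median was -0.07 with 12 of 17 below 0. Grouped by the genotype field, the median of the enzymes was -0.02 with 12 of 17 below 0, against 49.3% of all genes. No enzyme was called, and 3 had a limma unadjusted p under 0.05, all lower in named Qk-KO, against 4.5% of all genes lower. These 3 were 0 without named Qk-KO 2, 0 without named Qk-KO 3, 0 without named WT 4, 1 without named WT 1, 1 without named WT 3, 1 after median centring and 5 without named Qk-KO 1.

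Hmgcs1 makes HMG-CoA at the entry of the mevalonate pathway. Its values were 10.96, 10.72, 10.41 and 10.80 in named Qk-KO 1 to 4, against 11.05, 10.87, 10.95 and 11.08 in named WT 1 to 4. Named Qk-KO 3 was the lowest library and named Qk-KO 1 lay among those named WT, so the groups overlapped. The difference was -0.27 ± 0.11 (SE; limma, unadjusted p = 0.0348, adjusted p = 0.562), and the authors' deposited table gave -0.26 with an adjusted p of 0.400. Without named Qk-KO 3 the difference was -0.17. Idi1, which interconverts the isoprene building blocks, had 7.20, 7.09, 6.84 and 7.05 in named Qk-KO 1 to 4 and 7.31, 7.32, 6.98 and 7.10 in named WT 1 to 4, a difference of -0.13 ± 0.14 (SE) with overlapping groups, or -0.07 without named Qk-KO 3. The kinases Mvk and Pmvk, the decarboxylase Mvd and the farnesyl diphosphate synthase Fdps differed by 0.01, -0.03, 0.02 and -0.05. The 6 mevalonate genes thus had a median difference of -0.04. Fdps shares 1124 exon bases with an overlapping gene on its own strand, Gm43738, so part of its reads is uncertain.

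The 4 enzymes that make squalene, carry it to lanosterol and act first on lanosterol had the largest median difference of the roles, -0.28. Sqle (chr15:59315077-59331192, plus strand, GRCm38 here and for the genes that follow), which adds oxygen to squalene and is a rate-controlling step, had values of 6.23, 5.37, 5.48 and 6.25 in named Qk-KO 1 to 4, against 6.33, 6.56, 6.40 and 6.67 in named WT 1 to 4. The groups did not overlap, with named Qk-KO 2 and 3 about 1 unit under named WT and named Qk-KO 1 and 4 just under its lowest library. Sqle averaged 5.83 ± 0.47 in named Qk-KO and 6.49 ± 0.15 in named WT (SD, n = 4 each). The difference was -0.66 ± 0.24 (SE), or 1.58-fold lower, and its 95% bounds were -1.19 and -0.13 (unadjusted p = 0.0201, adjusted p = 0.520, limma). The authors' deposited table gave -0.69 with an adjusted p of 0.290. Of the 35, Sqle and Npc1 had named Qk-KO wholly below named WT, as had 2.7% of all genes tested, and 0 had it wholly above, as had 3.04%. Either way, 5.73% of all genes did not overlap.

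Fdft1 (chr14:63145150-63179578, minus strand), squalene synthase, had values of 8.84, 8.53, 8.16 and 8.40 in named Qk-KO 1 to 4, against 8.87, 8.88, 8.74 and 8.78 in named WT 1 to 4. Named Qk-KO 2, 3 and 4 lay below all libraries named WT, while named Qk-KO 1 lay among them. The difference was -0.34 ± 0.14 (SE; limma, unadjusted p = 0.0366, adjusted p = 0.571), and the authors' deposited table gave -0.33 with an adjusted p of 0.414. Fdft1 shares 774 exon bases, 18.3% of its exons, with the cathepsin gene Ctsb on the opposite strand, whose length-scaled level was 1468 against 2.37 for Fdft1. The sources used here do not say whether counting used strand, so Ctsb reads may be among those of Fdft1. Ctsb differed by -0.05, and its part in the Fdft1 values was not tested. Cyp51, which removes a methyl group from lanosterol, differed by -0.21 ± 0.13 (SE) and was lowest in named Qk-KO 3, at 9.09. It shares 166 exon bases with Akap9 on the opposite strand, whose length-scaled level was 6.44 against 4.10 for Cyp51. Akap9 differed by 0.13, and its part in the Cyp51 values was not tested. Lss, lanosterol synthase, differed by -0.03.

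The 7 enzymes that act after Cyp51 all had differences below 0 as deposited, from -0.18 to -0.02. Their median was -0.13, and none had a limma unadjusted p under 0.05. Sc5d, a sterol desaturase, had values of 9.26, 9.07, 9.06 and 8.95 in named Qk-KO 1 to 4 and 9.24, 9.44, 9.21 and 9.17 in named WT 1 to 4. Named Qk-KO 1 lay among the libraries named WT and the other 3 below them. Its difference was -0.18 ± 0.09 (SE; limma, adjusted p = 0.661). Hsd17b7, a sterol ketone reductase, had 7.18, 7.03, 7.24 and 7.51 in named Qk-KO 1 to 4 and 7.54, 7.34, 7.32 and 7.40 in named WT 1 to 4, a difference of -0.16 ± 0.14 (SE). Here named Qk-KO 4 was the second highest of the 8 libraries, and the difference was -0.25 without it and -0.09 without named Qk-KO 2. Msmo1, a sterol methyl oxidase, and Nsdhl, a sterol dehydrogenase, differed by -0.14 and -0.13. The reductases Dhcr7 and Tm7sf2 differed by -0.07 each, and Ebp by -0.02 with an interval of -0.15 to 0.11. Tm7sf2 shares 532 exon bases with Vps51 on its own strand, whose length-scaled level was 15.5 against 1.04 for Tm7sf2. Part of the reads of Tm7sf2 is therefore uncertain.

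Low values of the enzymes were gathered in a few libraries. Named Qk-KO 3 was the lowest library for 9 of the 17 enzymes, 52.9%, and for 16.9% of all genes tested. Over the 17 enzymes, the median deviation from each gene's mean was 0.07, -0.09, -0.17 and -0.05 in named Qk-KO 1 to 4, and 0.07, 0.02, 0.06 and 0.10 in named WT 1 to 4. Named Qk-KO 1 thus lay within the range of the libraries named WT, and named Qk-KO 2, 3 and 4 lay below it. Astrocytes also make much cholesterol. The summed level of the 10 astrocyte markers, none at 0, was 201, 133, 85.9 and 474 CPM in named Qk-KO 1 to 4 and 375, 205, 244 and 525 CPM in named WT 1 to 4. Named Qk-KO 3 was lowest in this sum and in those of 6 of the 10 marker lists in all, microglia, oligodendrocyte, neuron, mural and erythroid markers among them. All 10 astrocyte markers had differences below 0, and so had most markers of each of the 10 lists. The 10 oligodendrocyte markers, none at 0, summed to 133, 133, 125 and 265 CPM in named Qk-KO 1 to 4. In named WT 1 to 4 they summed to 140, 134, 131 and 311 CPM, so library 4 was highest in both groups. The part of these other cells in the enzyme values was not tested.

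**Figure D2:**
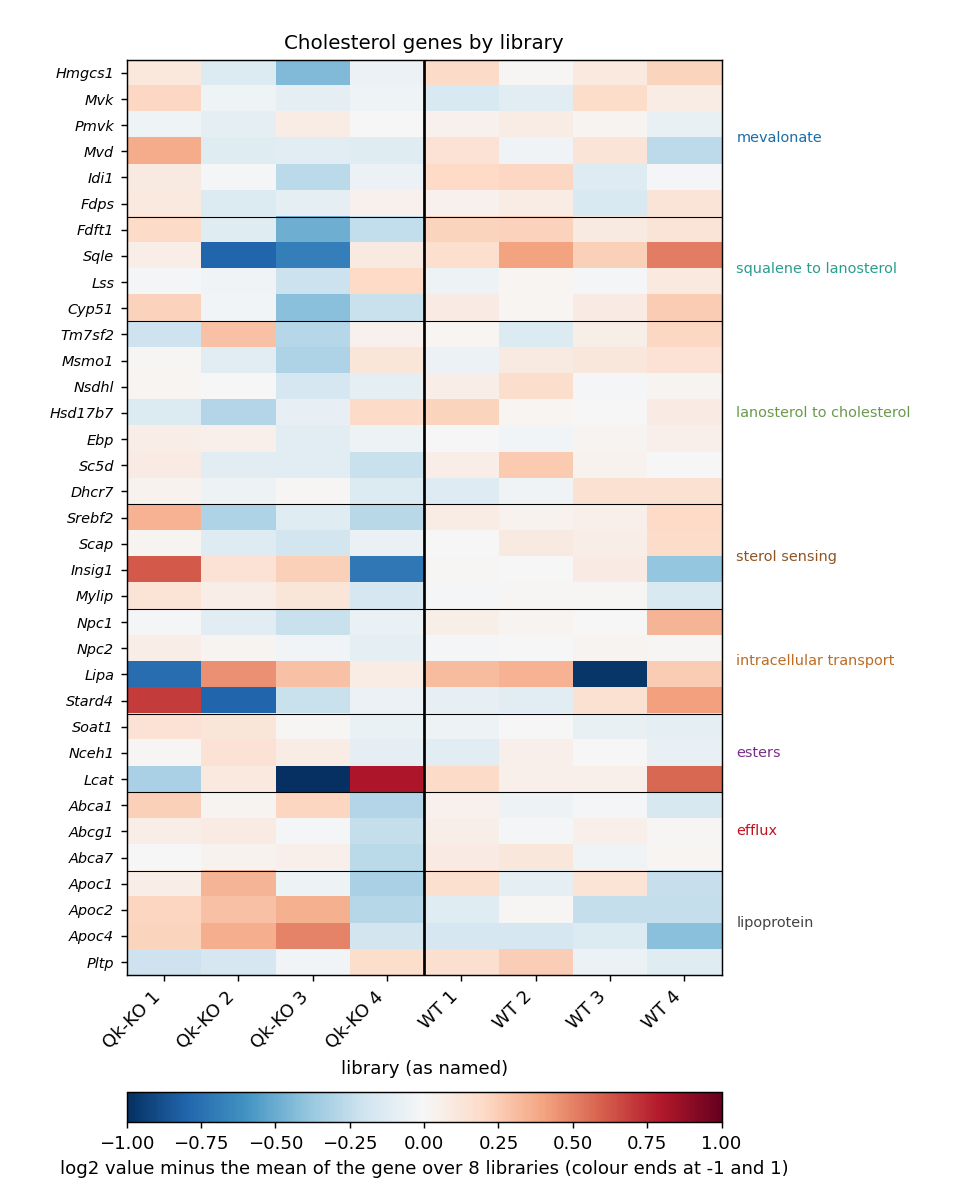
Regularized log2 value of each gene in each library minus the gene's mean over the 8 libraries (colour), with named Qk-KO 1 to 4 left of the line and named WT 1 to 4 right of it. In named Qk-KO 3, 15 of the 17 enzymes lie below their mean, and Lipa is low in named Qk-KO 1 and named WT 3.

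Promoters of 3 enzymes from successive stages of the pathway are shown for the letters they share. RefSeq promoters of GRCm38.p6, 250 bases before to 50 after the start, were at hand for 28 of the 35 genes, 14 of them enzymes. The CCAAT box, read as CCAAT or ATTGG on the other strand and known as the site of NF-Y, a partner of the Srebf2 product, was found in all 14 enzyme promoters and in 11 of the other 14. Of 27025 genes with a promoter, 41.1% held it. A sterol regulatory element, the site of the Srebf2 product, was searched as TCACNCCAC on both strands and was found in 1 of the 28, Hmgcs1, and in 1.44% of all genes. In the sequences, 5′ to 3′, capitals mark these 2 motifs, which did not overlap. Hmgcs1 lies at chr13:119690101-119690400 on the plus strand, and Cyp51 at chr5:4104648-4104947 and Msmo1 at chr8:64733529-64733828 on the minus strand.
Hmgcs1: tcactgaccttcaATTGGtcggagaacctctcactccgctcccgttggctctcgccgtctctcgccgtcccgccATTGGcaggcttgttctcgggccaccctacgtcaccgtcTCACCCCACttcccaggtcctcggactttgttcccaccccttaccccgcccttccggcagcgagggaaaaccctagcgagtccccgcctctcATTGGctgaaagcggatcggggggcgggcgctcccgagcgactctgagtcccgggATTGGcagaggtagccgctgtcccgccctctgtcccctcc
Cyp51: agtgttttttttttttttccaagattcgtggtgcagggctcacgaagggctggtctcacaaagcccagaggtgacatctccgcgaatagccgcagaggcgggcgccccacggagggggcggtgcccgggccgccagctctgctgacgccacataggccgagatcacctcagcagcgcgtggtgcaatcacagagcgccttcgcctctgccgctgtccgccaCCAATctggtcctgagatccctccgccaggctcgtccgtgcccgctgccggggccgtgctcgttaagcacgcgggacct
Msmo1: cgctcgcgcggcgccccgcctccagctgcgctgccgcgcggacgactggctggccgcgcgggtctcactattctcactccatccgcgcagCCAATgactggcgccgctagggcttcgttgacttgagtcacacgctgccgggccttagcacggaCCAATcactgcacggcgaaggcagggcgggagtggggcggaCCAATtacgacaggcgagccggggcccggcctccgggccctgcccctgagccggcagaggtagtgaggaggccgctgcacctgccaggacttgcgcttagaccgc
Hmgcs1 held 4 CCAAT boxes and 1 sterol regulatory element, Msmo1 held 3 CCAAT boxes and Cyp51 held 1. The differences of these 3, which were chosen by hand, were -0.27 for Hmgcs1, -0.14 for Msmo1 and -0.21 for Cyp51. Named Qk-KO 3 was the lowest library for each. Mvk held 5 CCAAT boxes, the most of the 28, and differed by 0.01. Whether boxes and differences go together was not tested. A match of letters is a description of the window, not a bound site.

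Sterol sensing genes differed in both directions. Scap (chr9:110333288-110384950, plus strand), which escorts the Srebf2 product to the Golgi for cleavage, had values of 12.11, 11.95, 11.90 and 12.02 in named Qk-KO 1 to 4, against 12.09, 12.17, 12.15 and 12.27 in named WT 1 to 4. Named Qk-KO 2, 3 and 4 lay below all libraries named WT, and named Qk-KO 1 just above the lowest of them. The difference was -0.17 ± 0.06 (SE), or 1.13-fold lower (limma, unadjusted p = 0.0184, adjusted p = 0.515), and the authors' deposited table gave -0.18 with an adjusted p of 0.279. After median centring the difference was -0.10 and no longer had an unadjusted p under 0.05.

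Srebf2 (chr15:82147181-82205379, plus strand) had values of 11.31, 10.65, 10.84 and 10.68 in named Qk-KO 1 to 4, against 11.03, 10.99, 11.01 and 11.16 in named WT 1 to 4. The libraries named Qk-KO held both extremes, with named Qk-KO 1 highest of the 8 and the other 3 lowest. The difference was -0.18 ± 0.13 (SE; limma, adjusted p = 0.729). It was -0.32 without named Qk-KO 1 (limma, unadjusted p = 0.00177, adjusted p = 0.331), -0.10 without named Qk-KO 2, -0.11 without named Qk-KO 4 and -0.10 after median centring. By the genotype field Srebf2 averaged 10.83 in Qk-KO and 11.08 in WT, a difference of -0.25 ± 0.12 (SE; limma, unadjusted p = 0.0643, adjusted p = 0.9995).

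Insig1, which holds Scap in the endoplasmic reticulum when sterol is plentiful, had values of 11.86, 11.39, 11.48 and 10.53 in named Qk-KO 1 to 4, and 11.26, 11.25, 11.33 and 10.86 in named WT 1 to 4. Named Qk-KO 4 was the lowest library and named WT 4 the next, while named Qk-KO 1, 2 and 3 lay above every library named WT. The difference of 0.14 ± 0.26 (SE) was within that spread (limma, adjusted p = 0.905). Mylip differed by 0.07 ± 0.08 (SE), with named Qk-KO 4 and named WT 4 again the lowest libraries, at 13.94 and 13.96.

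Among genes that move cholesterol out of lysosomes, Npc1 (chr18:12189692-12236400, minus strand), the membrane protein that exports it, had values of 13.88, 13.78, 13.67 and 13.83 in named Qk-KO 1 to 4, against 13.95, 13.92, 13.89 and 14.23 in named WT 1 to 4. The groups did not overlap, though named Qk-KO 1 and named WT 3 nearly met and named WT 4 stood above the rest. The difference was -0.21 ± 0.08 (SE), or 1.16-fold lower (limma, unadjusted p = 0.0306, adjusted p = 0.561), and the authors' deposited table gave -0.22 with an adjusted p of 0.340. Without named WT 4 the difference was -0.13, and after median centring it was also -0.13. Its luminal partner Npc2 differed by -0.01, with a 95% interval of -0.13 to 0.10.

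Lipa, the lysosomal acid lipase that frees cholesterol from esters, split the libraries without regard to name. Its values were 12.61, 13.83, 13.67 and 13.45 in named Qk-KO 1 to 4, and 13.69, 13.72, 12.40 and 13.63 in named WT 1 to 4. Named Qk-KO 1 and named WT 3 were low, and the other 6 lay between 13.45 and 13.83. By the genotype field these 2 libraries belong to WT and Qk-KO, so neither grouping followed the split. The difference between the named groups was 0.03, with a wide interval of -0.85 to 0.92. Stard4 had values of 7.93, 6.44, 7.01 and 7.17 in named Qk-KO 1 to 4, and 7.15, 7.12, 7.38 and 7.64 in named WT 1 to 4. As for Srebf2, named Qk-KO 1 was the highest library and named Qk-KO 2 the lowest, and the difference of -0.18 ± 0.28 (SE) was smaller than that spread. It was -0.45 without named Qk-KO 1, 0.050 without named Qk-KO 2 and, with named WT 4 left out, -0.077.

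Of the ester genes, Soat1, which esterifies cholesterol for storage in lipid droplets, had values of 14.36, 14.34, 14.23 and 14.15 in named Qk-KO 1 to 4, against 14.17, 14.22, 14.14 and 14.13 in named WT 1 to 4. Named Qk-KO 1, 2 and 3 lay above every library named WT and named Qk-KO 4 among them. The difference was 0.10 ± 0.06 (SE; limma, adjusted p = 0.672). Nceh1, a hydrolase of stored esters, differed by 0.07 ± 0.06 (SE). Lcat, with few reads, had 5.14, 5.56, 4.02 and 6.27 in named Qk-KO 1 to 4 and 5.65, 5.51, 5.51 and 6.04 in named WT 1 to 4. Named Qk-KO 3 was lowest and named Qk-KO 4 highest, so the difference of -0.43 ± 0.42 (SE) fell within the spread of the libraries named Qk-KO, and the authors' deposited table gave -0.22. It was -0.02 without named Qk-KO 3 and -0.77 without named Qk-KO 4 (limma, unadjusted p = 0.0482, adjusted p = 0.300).

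For each of the 3 efflux transporters the groups overlapped. Abca1 had values of 17.22, 17.01, 17.20 and 16.69 in named Qk-KO 1 to 4, and 17.03, 16.93, 16.97 and 16.82 in named WT 1 to 4. The difference was 0.09 ± 0.11 (SE), its 95% bounds were -0.16 and 0.34, and limma gave an adjusted p of 0.849. Without named Qk-KO 4 it was 0.20 (limma, unadjusted p = 0.019, adjusted p = 0.213), 0.026 without named Qk-KO 1, 0.032 if named Qk-KO 3 was left out and 0.050 if named WT 4 was. Abca7, a related lipid transporter, had 12.40, 12.43, 12.45 and 12.13 in named Qk-KO 1 to 4 and 12.48, 12.51, 12.36 and 12.42 in named WT 1 to 4, a difference of -0.09 ± 0.08 (SE), or -0.015 without named Qk-KO 4. Abcg1 differed by -0.05 ± 0.07 (SE), with an interval of -0.22 to 0.11. For all 3 transporters named Qk-KO 4 was the lowest of the 8 libraries, which held for 15.4% of all genes tested.

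The apolipoprotein genes Apoc1, Apoc4 and Apoc2 lie side by side on chromosome 7, between 19671579 and 19692660 (GRCm38, minus strand), and had differences of 0.02, 0.45 and 0.29. Apoc4, an apolipoprotein of triglyceride-rich particles, had values of 11.12, 11.26, 11.40 and 10.72 in named Qk-KO 1 to 4, against 10.73, 10.73, 10.76 and 10.48 in named WT 1 to 4. Named Qk-KO 1, 2 and 3 stood above every library named WT, and named Qk-KO 4 lay among them. Apoc4 averaged 11.13 ± 0.29 in named Qk-KO and 10.68 ± 0.13 in named WT (SD, n = 4 each). The difference was 0.45 ± 0.14 (SE), or 1.37-fold higher, and its 95% bounds were 0.14 and 0.76 (limma, unadjusted p = 0.00862, adjusted p = 0.444). It was the largest positive difference of the 35, and the authors' deposited table gave 0.47 with an adjusted p of 0.0778.

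Apoc2, the cofactor of lipoprotein lipase, had values of 10.73, 10.81, 10.87 and 10.23 in named Qk-KO 1 to 4, against 10.39, 10.53, 10.28 and 10.28 in named WT 1 to 4. As for Apoc4, named Qk-KO 1, 2 and 3 were high, and named Qk-KO 4 was here the lowest of the 8. The difference was 0.29 ± 0.13 (SE; limma, unadjusted p = 0.0556, adjusted p = 0.615), and the authors' deposited table gave 0.32 with an adjusted p of 0.381. Without named Qk-KO 4 the differences were 0.58 for Apoc4 and 0.44 for Apoc2, with limma adjusted p of 0.0725 and 0.0741. Apoc1 differed by 0.02 ± 0.14 (SE), with named Qk-KO 4 and named WT 4 lowest. Whether the 3 neighbours differ from each other in their response was not tested. Pltp, which moves phospholipid between particles, differed by -0.12 ± 0.11 (SE) and shares 495 exon bases with the cathepsin gene Ctsa on the opposite strand, whose length-scaled level was 513 against 20.4 for Pltp.

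**Figure D3:**
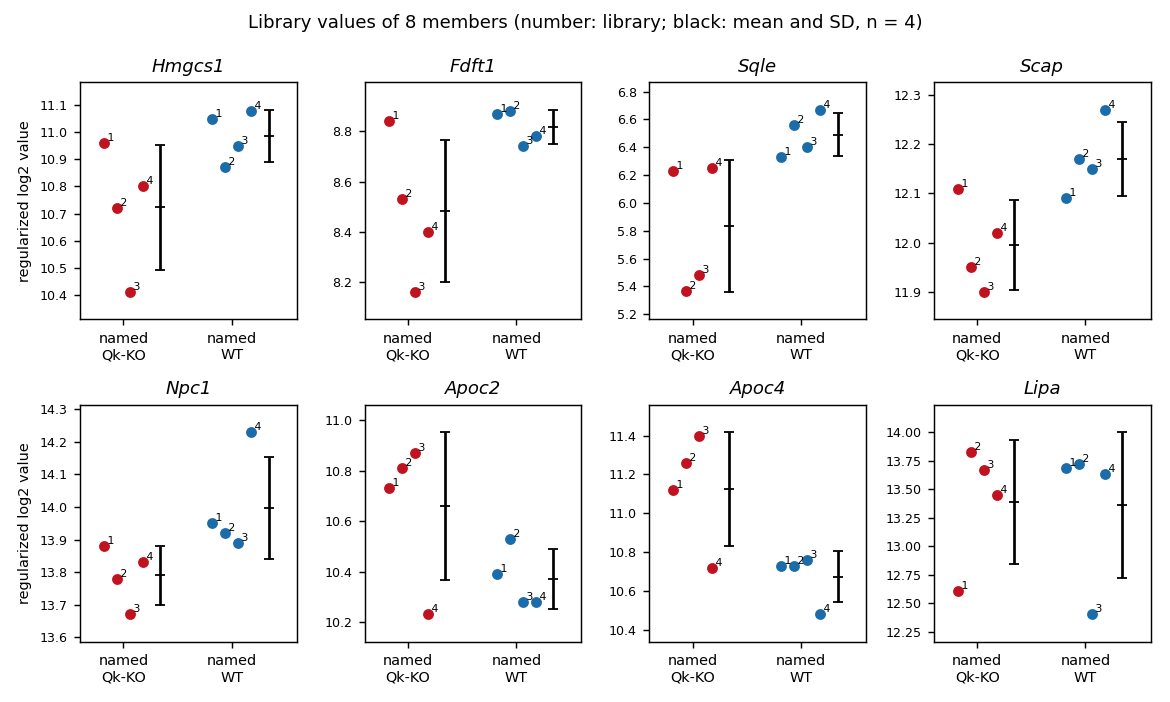
Regularized log2 values of 8 of the genes in every library (points, numbered by library), with named Qk-KO left of named WT and the mean ± SD of each group in black (n = 4). Each panel has its own axis; Sqle and Npc1 do not overlap between groups, named Qk-KO 4 departs from the other 3 in Apoc2 and Apoc4, and Lipa is low in named Qk-KO 1 and named WT 3.

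The 18 genes other than the enzymes had a median difference of 0.0012, with 9 below 0 and 9 above. Of all genes tested, 51.2% were below 0. Named Qk-KO 4 was the lowest library for 8 of the 18, and for 15.4% of all genes tested. Of 30 further genes of cholesterol regulation, transport and oxysterol synthesis, 17 had a difference below 0 and 13 above. Their median was -0.04, and the 17 stand beside the same 51.2% of all genes. None of the 30 was called by limma (smallest adjusted p = 0.595), against 0.00444% of all genes tested. The authors' deposited table called 0 of the 27 to which it gives an adjusted p, against 1.22% of its genes. Hsd3b7, an enzyme of bile acid synthesis from oxysterols, was the 1 gene of the 30 with a limma unadjusted p under 0.05, at a difference of 0.16 (adjusted p = 0.595).

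**Figure D4:**
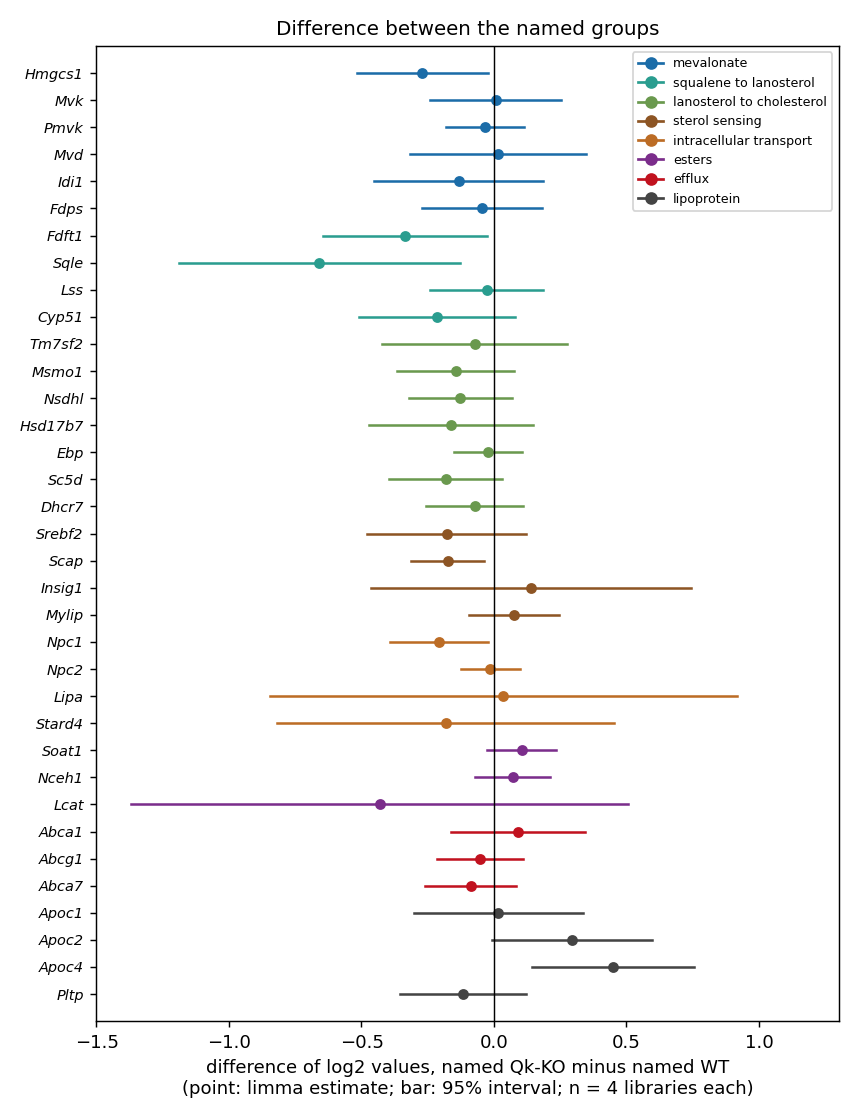
Difference of regularized log2 values, named Qk-KO minus named WT, for each of the 35 genes (limma estimate and 95% interval, n = 4 libraries each), coloured by role. The intervals of Hmgcs1, Fdft1, Sqle, Scap and Npc1 lie below 0 and that of Apoc4 above 0, none of them adjusted for the number of genes.

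Grouped by the genotype field, 0 of the 35 had a limma unadjusted p under 0.05, against 2.67% of all genes tested, and 0 of the 35 were called, against 0%. By that field Sqle averaged 6.14 in Qk-KO and 6.18 in WT, and Apoc4 averaged 10.87 in Qk-KO and 10.93 in WT. In the 4 libraries whose name and genotype field agree, named Qk-KO 2 and 4 and named WT 1 and 4, the differences of Sqle, Apoc4 and Srebf2 were -0.69, 0.39 and -0.43 (limma adjusted p = 0.973 for each), and 15 of the 17 enzymes were below 0, against 51.3% of all genes, a choice made once the values were known. Astrocyte markers there summed to 133 and 474 CPM in the libraries named Qk-KO and 375 and 525 CPM in those named WT, with overlap.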

How the data were processed

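Per the submitters' processing notes, the tools included FastQC, HISAT2 and StringTie and the build was mm10; versions and settings are not given in the sources used here. In the authors' table, log2 values fill 8 columns, 1 per library, taken from their behaviour to be regularized values shrunken towards the gene's mean where reads are few. The deposited mean normalized signal was divided by its sum to give CPM, and by exon length in GENCODE M21 (GRCm38) to give length-scaled levels. Per the file headers, the authors' table also gives a log2 fold change, its SE, a test score and p-values. It follows the library names: over 5232 genes with an SE under 0.1, r across genes with the difference of named groups was 0.9997, against 0.0460 for the genotype field. No counts per library were used, so no count test was run. Library totals are estimates from the size of 1 read in genes seen in a single library.

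Of 27486 genes with reads, the 22546 that reached a value of 1 (on the scale of the normalized signal) in 4 or more libraries were fitted with limma 3.58.1 in R 4.3.3, with a trend and robust prior, and adjusted by Benjamini-Hochberg over all of them. The fit was tested on simulated data. Alternatives left out single libraries, grouped by the genotype field, added it or the replicate number as a term, centred on medians or quantiles, and dropped the filter, the trend or the robust prior. Library values were named for genes with a limma unadjusted p under 0.05, a call by the authors, no overlap between groups, or one of the 2 largest differences of their role, and for Lipa, Insig1 and others after their values were seen. The 35 genes and all lists were chosen with earlier results of these data known.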

Additional observations from a re-analysis of the deposited data

Results flagged for a closer look

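Within each group of 4, libraries far from the other 3 were looked for in all 35 genes, 70 groups in all, of which 6 were found; chance gives about 1 in 20. Mvd was at 8.65 in named Qk-KO 1, against 8.16 to 8.17 in the other 3 libraries named Qk-KO. Abca7 was at 12.13 in named Qk-KO 4, against 12.4 to 12.45. Lipa was at 12.4 in named WT 3, against 13.63 to 13.72 in the other 3 libraries named WT, and named Qk-KO 1 was similarly low at 12.61 without standing as far apart in its group. Named WT 4 stood below the other libraries named WT for Insig1 (10.86, against 11.25 to 11.33), Mylip (13.96, against 14.09 to 14.12) and Apoc4 (10.48, against 10.73 to 10.76).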

How the results depend on the processing

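No member was called by limma under any alternative, and the smallest adjusted p was 0.0725, for Apoc4 without named Qk-KO 4. The authors' deposited table called 0 at 0.01 and 1, Apoc4, at 0.1. The count of members at an unadjusted p under 0.05 was 6 as reported, beside 8.26% of all genes. It was 0 by the genotype field and 2 after median centring, beside 2.67% and 7.77%. In the 4 libraries whose labels agree (chosen after seeing the data) it was 2, beside 4.24%. Over single left-out libraries it was 1 to 11, beside 5.91% to 16.4%. The median difference of the enzymes was -0.016 by the genotype field and -0.14 to -0.07 over left-out libraries. Over left-out libraries 12 to 17 enzymes were below 0, and after median centring 9 were, beside 33.0% of all genes. The median difference of the 18 other genes ranged from -0.05 to 0.02 over left-out libraries. By the genotype field the differences of Soat1, Lcat, Abca1, Apoc2 and Apoc4 reversed to -0.011, 0.50, -0.17, -0.11 and -0.065; in the libraries whose labels agree, those of Lcat and Abca1 were 0.066 and -0.080. Stard4 ranged from -0.45 to 0.050 over left-out libraries. The cause of these changes was not tested. Deviations of same-numbered libraries correlated across genes at r of 0.0462, 0.149, 0.274 and 0.458. Named Qk-KO 2, 3 and 4 were each closest to the library named WT of their own number. Named Qk-KO 1 was closer to named WT 3 (r = 0.125), and named WT 2 was closest to named Qk-KO 3 (r = 0.167). The main fit did not take the numbers as pairs, and whether they mark pairs was not tested. With the replicate number as a block, 7 members had an unadjusted p under 0.05 beside 2924 of all 22546 genes tested (1863 with no block), 0 were called and the median of the enzymes stayed at -0.13; the block changed no call. Depth limits Lcat and Sqle most, at 0.883 and 1.34 CPM.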
